A study of Mus musculus with 6 samples.

Results

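The nuclear genes for subunits and assembly factors of oxidative phosphorylation were chosen by symbol: those starting with Nduf, Uqcr, Atp5 or Cox and a digit, together with Cyc1, Cycs, Surf1, Sco1, Sco2 and Bcs1l. Of 18193 genes that the arrays measured with a probe set listing 1 gene only, 100 met this rule. They comprised 42 genes of complex I, 10 of complex III, 30 of complex IV, 17 of complex V and Cycs, the gene of cytochrome c. Of these, 79 were counted as subunit genes, with Cycs included, and 21 encode assembly factors. Assembly factors fold, insert or metallate the subunits but are mostly absent from the finished complex. Ndufa4 and its paralogue Ndufa4l2 carry complex I names but were placed with complex IV, of which NDUFA4 is a subunit. For a gene with several probe sets, the one that was brightest on average was used, and 45 of the 100 had a single probe set.

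Oxidative phosphorylation couples electron transport in the inner mitochondrial membrane to the synthesis of ATP. Complex I takes electrons from NADH and passes them to ubiquinone, complex III hands them to cytochrome c, and complex IV gives them to oxygen. The protons pumped on the way drive complex V, the ATP synthase. The tubules of the kidney, above all the proximal tubule, reabsorb solutes by active transport and are rich in mitochondria. Fumarate hydratase, encoded by Fh1, works beside this chain in the tricarboxylic acid cycle, whose NADH feeds complex I and whose succinate feeds complex II.

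Cystic epithelium was macro-dissected from Fh1 knockout kidneys (3 samples) and compared with renal epithelium from wild-type littermates of matched sex that were free of disease (3 samples). Genotype and the state of the tissue, cystic or free of disease, thus differ together and cannot be told apart. Each sample was hybridised to 1 Affymetrix array. Strain, age, sex, the allele and any Cre driver are not given in the labels. Nor do they state whether the 3 samples of a group are 3 mice, and the p-values rest on the variation among these samples, which may be technical. All values below are on the log2 scale of RMA, in which 1 unit is a doubling of signal.

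Fh1 read 12.41, 12.34 and 12.22 on the wild-type arrays and 11.54, 11.60 and 11.61 on the knockout arrays, so the groups did not overlap (log2 fold change -0.74, SE 0.08, limma adjusted p = 0.000396). Whether its 1 probe set lies in the deleted part is not known here. Array medians over all probe sets lay between 6.20 and 6.25. Over the 100 genes, wild-type 3 was the lowest wild-type array for 66 and wild-type 2 the highest for 56. Relative to the wild-type mean, the median of the 100 genes was 0.01, 0.06 and -0.07 on wild-type arrays 1 to 3, and -0.40, -0.34 and -0.35 on the knockout arrays.

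Transcripts of oxidative phosphorylation were lower in the knockout samples. Of the 100 genes, 75 fell and 2 rose at an adjusted p under 0.05 over all genes, and 23 did not pass. By the same rule 27.7% of all genes were lower, 21.6% were higher and 49.2% passed in either direction. The log2 fold change was negative for 95 of the 100, with a median of -0.36, a 1.28-fold difference, against a median of -0.11 for all genes. Cox7a1 alone was lower by 2-fold or more, a size that 3.39% of all genes reached. For 81 genes every knockout array read below every wild-type array, as it did for 37.1% of all genes, and for 2 genes every knockout array read above (25.7% of all genes). Re-centring the arrays on their gene medians left 84 of the 100 lower, beside 37.7% of all genes. Without knockout 1, 45 of the 100 were lower, beside 17.4% of all genes. Of the genes that rose, 1 passed when any array but wild-type 2 was left out. In all, 45 of the 75 lower genes passed whichever array was left out. Among all genes the share called lower was below 27.7% whichever array was left out. It was 17.4% without knockout 1, 20.3% without knockout 2 and between these values without knockout 3. The counts by group given below stand beside this general loss of calls.

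Most of these probe sets are bright, and bright genes were compared separately. Of the 418 genes with a mean of 12 or above, 41.1% were lower and 27.5% higher, with a median of -0.08. The 51 members in that range had 41 lower and none higher, with a median of -0.35. At means of 8 to 10, 11 of 15 members were lower, beside 22.6% of all genes. Of 3 members with a mean under 6, 1 was lower, and of 8 at 6 to 8, 3 were lower and 1 higher, beside 27.7% of all genes lower at 6 to 8. All genes with a mean under 6 had a median log2 fold change of -0.21, so a small fall at that level lies near the general value.

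**Figure D1:**
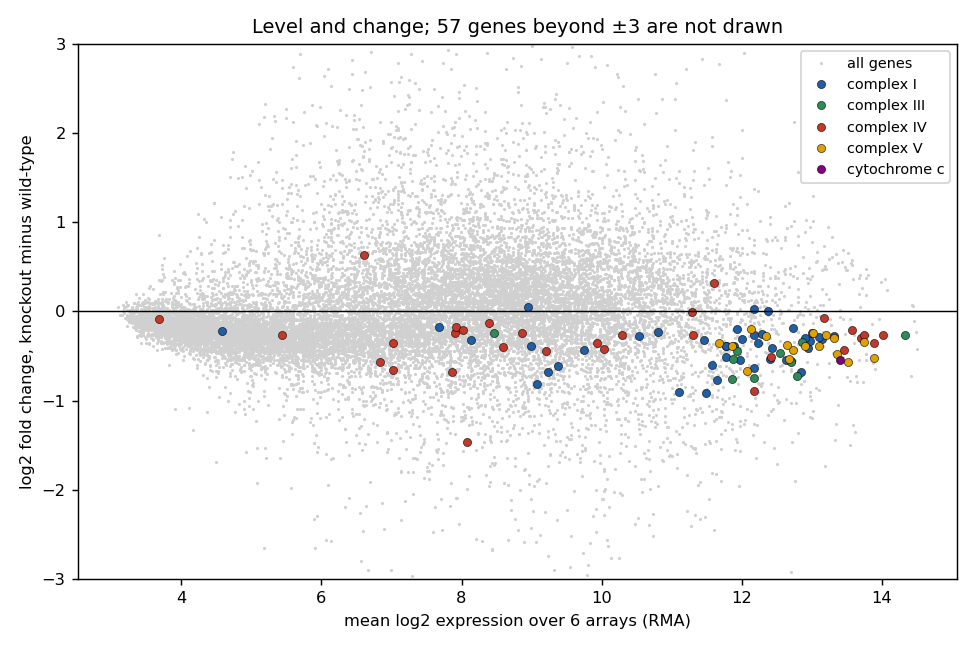
Mean log2 expression over the 6 arrays (horizontal axis) against the log2 fold change of knockout over wild-type (vertical axis) for every gene (grey) and for the 100 oxidative phosphorylation genes (coloured by complex). Most members lie below 0 at means above 10, and the grey cloud bends below 0 at means under 6.

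Markers of the cells that could supply these transcripts moved in the same samples. Of 13 measured proximal tubule markers 12 fell, with a median of -1.53, and their summed linear signal was 125907 to 130230 on wild-type arrays and 51979 to 56707 on knockout arrays. Of 8 markers of the thick limb and distal tubule 7 fell (median -1.20), with summed signals of 58335 to 67534 and 24650 to 32745. Immune markers were higher, 10 of 12 (median 1.76), with summed signals of 4685 to 6137 and 11328 to 15231. Fibroblast and matrix markers were higher in 7 of 10 (median 1.52), with 4603 to 5878 and 12097 to 20472. Collecting duct markers had 4 of 8 lower and 1 higher, with summed signals of 7799 to 9524 and 6844 to 9024. Endothelial markers were lower in 5 of 6 (2745 to 3897 and 1814 to 2203; 3 of 6 without knockout 1) and podocyte markers in 2 of 4 (1692 to 2029 and 1064 to 1197). All 6 markers of tubular injury were higher, with 2413 to 2878 and 25607 to 27677. These counts stand beside 27.7% of all genes lower and 21.6% higher, and 17.4% lower without knockout 1. RMA gives no call of absence, so no marker could be placed at 0. The part of these shifts in the falls described here was not tested. In bulk tissue, fewer cells of a type and less RNA per cell cannot be told apart.

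Complex I, the NADH dehydrogenase, has a catalytic core that carries the flavin and the iron-sulfur clusters, surrounded by accessory subunits. Of 6 nuclear core genes measured, 5 fell, with a median of -0.61. Ndufs1, which encodes the largest iron-sulfur subunit, read 11.95, 11.96 and 11.94 in wild-type and 11.02, 10.95 and 11.12 in knockout samples. The wild-type arrays were nearly identical and lay well above the knockout arrays (log2 fold change -0.92, SE 0.08, 1.89-fold lower, adjusted p = 0.000129). Ndufs3, of the arm that binds ubiquinone, read 11.97, 11.99 and 12.13 against 11.22, 11.23 and 11.34, and fell by 0.77 with SE 0.08. Ndufs8, a further iron-sulfur subunit, read 13.15, 13.25 and 13.16 against 12.44, 12.50 and 12.58, and fell by 0.68. In both genes the groups were separated by several times the spread within either.

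Ndufv1, the flavin-binding subunit where NADH is oxidised, was the core gene with the smallest change. It read 12.51, 12.48 and 12.25 against 12.18, 12.13 and 12.18, with no overlap (log2 fold change -0.25, SE 0.09), and missed the threshold at an adjusted p of 0.0548. Without wild-type 3, its lowest wild-type array, Ndufv1 passed with a log2 fold change of -0.33 (adjusted p = 0.0113). Of its other probe sets one fell by 0.66 (limma adjusted p = 0.000609 over all probe sets), and the mean of all 3 sets fell by 0.39.

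Of 28 accessory genes of complex I, 20 fell and none rose, with a median of -0.32. The share of all genes lower was 17.4% without knockout 1 and 20.3% without knockout 2. Without knockout 1, 2 or 3 the lower accessory genes numbered 11, 13 and 13. Ndufs5 had the largest fall, from 11.51, 11.78 and 11.37 to 10.61, 10.60 and 10.76 (log2 fold change -0.90, SE 0.12, adjusted p = 0.000862). Ndufa9, a subunit at the junction of the matrix and membrane arms, read 12.51, 12.51 and 12.44 against 11.86, 11.83 and 11.88, a fall of 0.63. Ndufb10, of the membrane arm, fell by 0.60 with SE 0.11. Ndufab1, the mitochondrial acyl carrier protein, fell by 0.56, from 13.03, 13.12 and 12.81 to 12.34, 12.40 and 12.55. None of these overlapped between the groups.

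Ndufa7 and Ndufa2 were the accessory genes closest to 0. Ndufa7 read 12.33, 12.47 and 12.31 against 12.37, 12.40 and 12.35 (log2 fold change 0.00, SE 0.08, adjusted p = 0.964), and its knockout arrays lay inside the wild-type range. Of its 5 probe sets 4 had log2 fold changes of -0.07 to 0.00 and did not pass, and the dimmest fell by 0.25 (limma adjusted p = 0.0435 over all probe sets). Ndufa2 read 12.22, 12.22 and 12.02 against 12.21, 12.21 and 12.14 and also overlapped; it was named after its values were seen. Its log2 fold change of 0.03 was -0.04 with arrays re-centred. Ndufb4 was measured here only by a dim probe set, at 4.42 to 4.84 over all arrays, and did not pass.

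Of 8 assembly factors of complex I, 6 fell, with a median of -0.41; 4 fell without wild-type 1, without wild-type 2, without knockout 1 or without knockout 3. Ndufaf6, needed early for the ubiquinone-binding arm, read 9.48 on all 3 wild-type arrays and 8.63, 8.72 and 8.65 on knockout arrays (log2 fold change -0.81, SE 0.07, adjusted p = 0.000156). Ndufaf3 read 9.58, 9.67 and 9.47 against 8.84, 8.91 and 8.95, a fall of 0.68. Ndufaf1, a chaperone of the membrane arm, read 9.77, 9.68 and 9.60 against 9.03, 9.06 and 9.12, a fall of 0.61. Ndufaf8 missed the threshold at an adjusted p of 0.0555, and its other probe set fell by 0.38 (limma adjusted p = 0.00616 over all probe sets). The other gene that did not pass was Ndufaf2, a late-stage factor. It read 9.05, 8.91 and 8.83 against 8.96, 8.96 and 9.01 (log2 fold change 0.05, SE 0.08, adjusted p = 0.658). Ndufaf2 was -0.03 with arrays re-centred and -0.06 after quantile normalisation, so its sign changed with the scaling. Without knockout 1, the lower genes of complex I numbered 19 in place of 31, beside 17.4% of all genes in place of 27.7%.

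**Figure D2:**
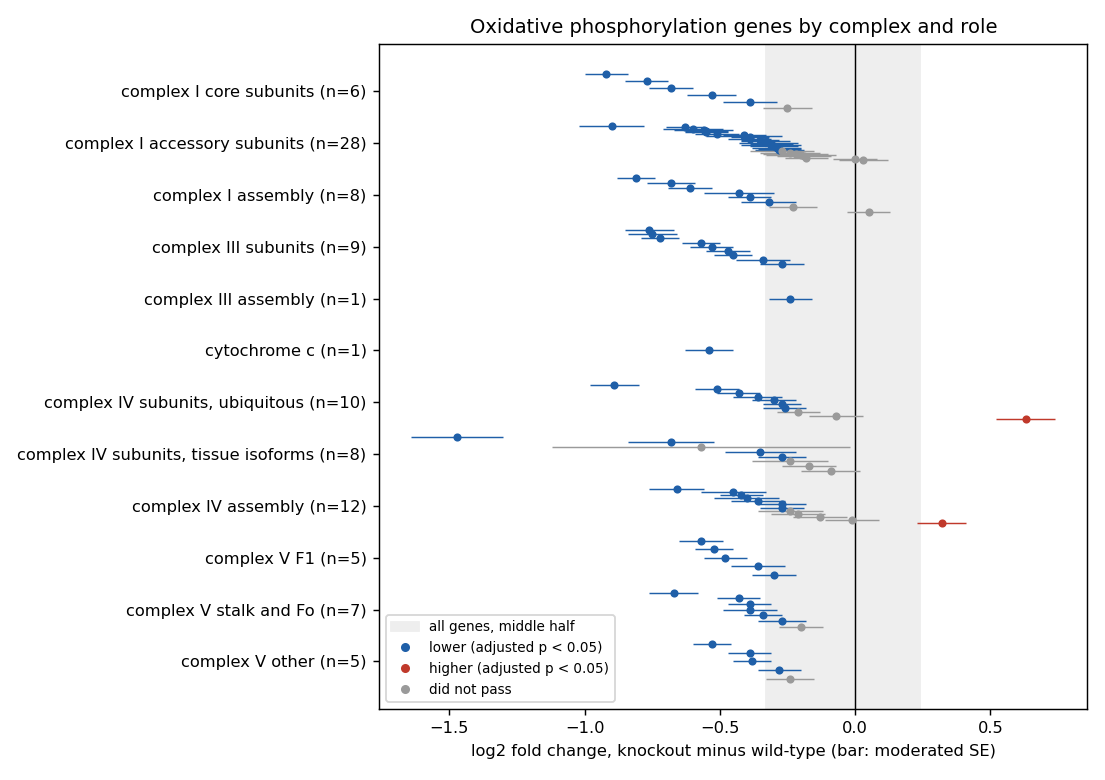
Log2 fold change of knockout over wild-type (horizontal axis, bar: moderated SE) for each of the 100 genes, grouped by complex and role. Blue points fell and red points rose at an adjusted p under 0.05, grey points did not pass, and the grey band is the interquartile range of all genes, -0.33 to 0.24. All complex III and F1 genes are blue, and the only red points are Cox7c and Cox7a2l in complex IV.

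Complex III, the cytochrome bc1 complex, had all 10 genes lower, with no overlap of groups in any and a median of -0.50. The core subunit genes Uqcrc1 and Uqcrc2 read 12.14, 12.24 and 12.35 against 11.53, 11.46 and 11.46, and 13.17, 13.19 and 13.10 against 12.43, 12.42 and 12.45. The log2 fold changes were -0.76 (SE 0.09, adjusted p = 0.000391) and -0.72 (SE 0.07, adjusted p = 0.000273). Uqcrfs1, the Rieske iron-sulfur protein, read 12.54, 12.47 and 12.64 against 11.75, 11.76 and 11.89, a fall of 0.75. Cyc1, the cytochrome c1 that passes electrons to cytochrome c, fell by 0.57 and was close to constant within the wild-type group, at 12.99, 12.99 and 12.98. The small subunit genes Uqcr11, Uqcr10, Uqcrq, Uqcrh and Uqcrb fell by 0.53 to 0.27. Bcs1l, which inserts the Rieske protein, fell by 0.24 (adjusted p = 0.0365). Uqcrh, Uqcrb and Bcs1l lost their calls when some arrays were left out. Uqcrh lost it when any array but wild-type 3 was left out, with an adjusted p of up to 0.0791. Uqcrb lost it without wild-type 2 or any knockout array, with an adjusted p of up to 0.0778, and Bcs1l without wild-type 1 or 2 or any knockout array, with one of up to 0.103. Quantile normalisation also ended the calls of Uqcrb (-0.12, adjusted p = 0.247) and Uqcrh (-0.20, adjusted p = 0.151). The 2 other sets of Uqcr10 fell by 0.86 and 1.16, against 0.47 in the set used.

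Cytochrome c itself fell. Cycs read 13.78, 13.64 and 13.59 in wild-type and 13.08, 13.11 and 13.22 in knockout samples (log2 fold change -0.54, SE 0.09, adjusted p = 0.00225). All 4 Cycs probe sets were lower, by 0.54, 0.63, 0.80 and 1.42, the last from a dim probe set at 6.66, 6.84 and 6.79 in wild-type samples.

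Complex IV, cytochrome c oxidase, had 18 of 30 genes lower, 2 higher and 10 not passing (median -0.27). Its count of lower genes was 7 without knockout 1, 11 without knockout 2 and 9 without knockout 3. Of all genes, 17.4% were lower without knockout 1 and 20.3% without knockout 2. The 7 of 30 without knockout 1 thus stood little above the share of all genes. Among 10 ubiquitous subunit genes, 7 fell and 1 rose; 3 fell without knockout 1. Ndufa4 fell most, from 12.57, 12.53 and 12.77 to 11.66, 11.78 and 11.78 (log2 fold change -0.89, SE 0.09, adjusted p = 0.000303). Cox8a read 12.58, 12.66 and 12.76 against 12.18, 12.18 and 12.14, a fall of 0.51. Cox6c read 13.58, 13.73 and 13.71 against 13.23, 13.25 and 13.25, a fall of 0.43; its other probe set was at -0.02 and did not pass. Cox4i1, Cox6a1 and Cox6b1 fell by only 0.27, 0.26 and 0.30. These 3 calls ended after quantile normalisation, where the log2 fold changes were -0.13, 0.00 and -0.19. Without knockout 1 the adjusted p of Cox6b1 was 0.0645; that of Cox4i1 reached 0.0617 when a knockout array was left out, and that of Cox6a1 reached 0.0879 when any array but wild-type 3 was.

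Cox5a, which binds close to the catalytic core, read 13.30, 13.33 and 13.01 against 13.14, 13.15 and 13.14 and was not called (log2 fold change -0.07, SE 0.10, adjusted p = 0.575). Its knockout arrays lay between wild-type 3 and the other wild-type arrays. Another Cox5a probe set fell by 0.28 (limma adjusted p = 0.0337 over all probe sets). Cox7a2 read 13.72, 13.74 and 13.59 against 13.45, 13.47 and 13.51 (log2 fold change -0.21, adjusted p = 0.0659). Without wild-type 3 it passed with an adjusted p of 0.0287. Its other probe set fell by 0.43 (limma adjusted p = 0.00393 over all probe sets). The mean of both sets fell by 0.32 and passed (limma adjusted p = 0.00748).

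The genes that rose were Cox7c and Cox7a2l. Cox7a2l, also known as SCAF1, joins complex III and complex IV into supercomplexes. It read 11.47, 11.54 and 11.33 in wild-type and 11.70, 11.88 and 11.71 in knockout samples, without overlap (log2 fold change 0.32, SE 0.09, adjusted p = 0.0263). All 3 of its probe sets had positive changes, 0.32, 0.43 and 0.25, and 2 of these passed. With arrays re-centred Cox7a2l read 0.24 (adjusted p = 0.0558), and leaving out any array but wild-type 2 ended its call, with log2 fold changes of 0.26 to 0.37 and an adjusted p of up to 0.0915. Cox7c read 6.47, 6.30 and 6.12 against 6.86, 6.91 and 7.00 (log2 fold change 0.63, SE 0.11, adjusted p = 0.00252). Both of its probe sets rose, but both were dim, with means of 6.61 and 4.62, and whether they report the main Cox7c transcript was not tested. Cox7c kept its call whichever array was left out.

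Complex IV has subunit isoforms that differ between tissues, and 8 such genes were measured, of which 4 fell. Of these, 2 passed without wild-type 1, without wild-type 3, without knockout 1 or without knockout 3. The share of all genes lower was 24.3% without wild-type 3 and 17.4% without knockout 1. It lay between these values without wild-type 1 or knockout 3. The 2 of 8 isoform genes thus stood near the share of all genes in these fits. Cox7a1, the isoform of heart and skeletal muscle, had the largest change of all 100 genes. It read 8.63, 9.22 and 8.59 in wild-type and 7.35, 7.25 and 7.44 in knockout samples, so the highest knockout array lay more than 1 unit below the lowest wild-type array (log2 fold change -1.47, SE 0.17, 2.76-fold lower, adjusted p = 0.000423). Leaving out each array in turn gave log2 fold changes of -1.58 to -1.26 and kept its call. Cox6b2, an isoform of testis, read 8.21, 8.46 and 7.93 against 7.31, 7.47 and 7.77, a fall of 0.68 (adjusted p = 0.0112).

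Ndufa4l2 and Cox4i2 are known as genes that hypoxia induces. Ndufa4l2 read 7.20, 7.00 and 7.40 against 6.82, 7.01 and 6.72, with knockout 2 just inside the wild-type range (log2 fold change -0.35, SE 0.13, adjusted p = 0.0486). Cox4i2 read 5.51, 5.48 and 5.73 against 5.32, 5.33 and 5.26 (log2 fold change -0.27, SE 0.09, adjusted p = 0.0433). Both calls were marginal. That of Ndufa4l2 ended without wild-type 1 or 3 or knockout 1 or 3 (adjusted p up to 0.150), and that of Cox4i2 ended when any array but wild-type 2 was left out (up to 0.127). Both also ended with a trended robust prior (adjusted p = 0.0523 and 0.0525). After quantile normalisation Cox4i2 was at -0.12 (adjusted p = 0.287). Cox4i2 lies in the range under 6 where all genes had a median of -0.21. Cox8b, an isoform of muscle, read 6.68, 8.45 and 6.26 against 6.21, 6.21 and 7.26 and did not pass, and without wild-type 2 its log2 fold change was 0.09. Cox6a2 read 7.86, 8.06 and 8.11 against 7.78, 7.92 and 7.80 and did not pass.

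Differences within isoform pairs were tested over samples for 8 pairs, taking on each array the log2 value of one gene minus that of the other. With 3 samples a group the exact permutation test, two-sided, cannot give a p under 0.1, so no pair could pass. For Cox7a1 minus Cox7a2 the log2 fold changes differed by -1.26 (pooled SD 0.22), and for Ndufa4l2 minus Ndufa4 by 0.53 (SD 0.13). For Atp5g1 minus Atp5g3 the difference was -0.33 (SD 0.09), and -0.12 with the mean of all probe sets. Each of these 3 pairs reached the smallest exact p of 0.1, which is 0.267 after Benjamini-Hochberg adjustment over the pairs. For the other 5 pairs the exact p was 0.200 or above, and Cox4i2 minus Cox4i1 differed by 0.00 (SD 0.10).

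**Figure D3:**
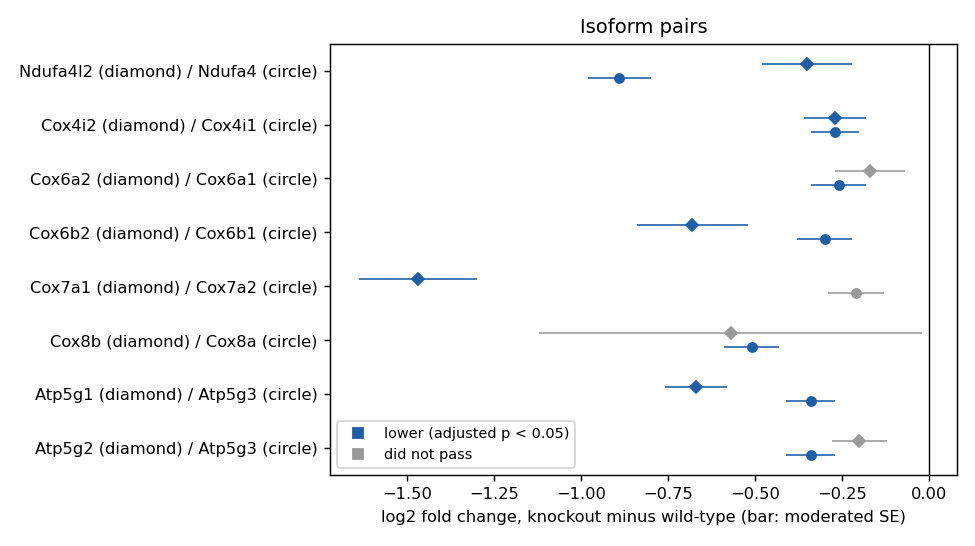
Log2 fold change of knockout over wild-type (horizontal axis, bar: moderated SE) for both genes of the 8 isoform pairs, with the first-named gene as a diamond and the second as a circle. Blue points fell at an adjusted p under 0.05 and grey points did not pass. Cox7a1 stands apart at -1.47, and no gene of a pair lies above 0.

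Of 12 genes that assemble complex IV, counting Cox7a2l, 7 fell and Cox7a2l rose. The lower genes numbered 4 without wild-type 2, 2 without knockout 1, 3 without knockout 2 and 2 without knockout 3. Without knockout 1 and 2 these counts were near the shares of all genes, 17.4% and 20.3%. Sco1, which delivers copper to the enzyme, read 7.23, 7.37 and 7.45 against 6.70, 6.79 and 6.59 (log2 fold change -0.66, SE 0.10, adjusted p = 0.00128). Cox15, of haem A synthesis, read 9.56, 9.56 and 9.15 against 9.01, 8.99 and 8.94, a fall of 0.45 that passed at an adjusted p of 0.0200. This set lost the call without wild-type 1 or any knockout array (adjusted p up to 0.0645). Its 3 other sets had larger falls, with log2 fold changes of -0.92, -1.04 and -1.32 (limma adjusted p of 0.000121, 0.000261 and 0.00114 over all probe sets), and the mean of all 4 fell by 0.93. Surf1, the factor altered in Leigh syndrome, read 10.30, 10.28 and 10.18 against 9.79, 9.84 and 9.85, a fall of 0.42. The copper chaperone gene Cox17 read 11.35, 11.41 and 11.11 against 11.28, 11.31 and 11.25 and did not pass (log2 fold change -0.01, adjusted p = 0.926). Cox17 was at 0.01 after quantile normalisation. Sco2, a relative of Sco1, was at -0.13 and did not pass, and Cox11, which inserts copper, fell by 0.40; both were named after their values were seen. Cox11 lost its call when any array but wild-type 3 was left out (adjusted p up to 0.0942).

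Assembly factors of all complexes together had 14 of 21 lower and 1 higher (median -0.32), and subunits 61 of 79 lower and 1 higher (median -0.38). The difference between subunits and assembly factors was not tested. Without knockout 1, 39 of the subunit genes were lower. The lower assembly factors numbered 9 without wild-type 1 and 8 without wild-type 2. They numbered 6 without knockout 1, 8 without knockout 2 and 6 without knockout 3. The share of all genes lower was 17.4% without knockout 1 and 20.3% without knockout 2.

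Complex V, the ATP synthase, had 15 of 17 genes lower and none higher, with no overlap of groups in any of the 17 (median -0.39). All 5 genes of the catalytic F1 head fell; 3 passed without knockout 1. Atp5a1 and Atp5b, the alpha and beta subunits, read 13.76, 13.78 and 13.89 against 13.25, 13.20 and 13.26, and 14.12, 14.13 and 14.21 against 13.61, 13.63 and 13.66. Their log2 fold changes were -0.57 (SE 0.08, adjusted p = 0.000961) and -0.52 (SE 0.07, adjusted p = 0.00121). Atp5c1, the gamma subunit of the rotating stalk, read 13.62, 13.68 and 13.51 against 13.07, 13.13 and 13.15, a fall of 0.48. Atp5d, the delta subunit, fell by 0.30, the least of the head; without knockout 1 or 2 it lost its call (adjusted p up to 0.0543), as it did after quantile normalisation (adjusted p = 0.0667).

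In the stalk and membrane ring 6 of 7 genes fell. Atp5g1, Atp5g2 and Atp5g3 encode the same mature ring subunit with different import sequences. Atp5g1 read 12.35, 12.53 and 12.34 against 11.69, 11.72 and 11.81 (log2 fold change -0.67, SE 0.09, adjusted p = 0.000796). Atp5g3 read 13.95, 13.92 and 13.89 against 13.59, 13.57 and 13.57, a fall of 0.34. Atp5g2 read 12.21, 12.19 and 12.29 against 11.93, 12.10 and 12.07 with no overlap, yet missed the threshold (log2 fold change -0.20, SE 0.08, adjusted p = 0.0812). Atp5j and Atp5pb, of the peripheral stalk, fell by 0.43 and 0.39. Of 5 further membrane subunits 4 fell, with Atp5k at -0.53, Atp5md at -0.39 and Atp5l at -0.38. Atp5j2 was just outside the threshold (log2 fold change -0.24, adjusted p = 0.0524) and passed without wild-type 3 (adjusted p = 0.0157). With the mean of all its probe sets it was at -0.26 and passed (limma adjusted p = 0.0140).

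**Figure D4:**
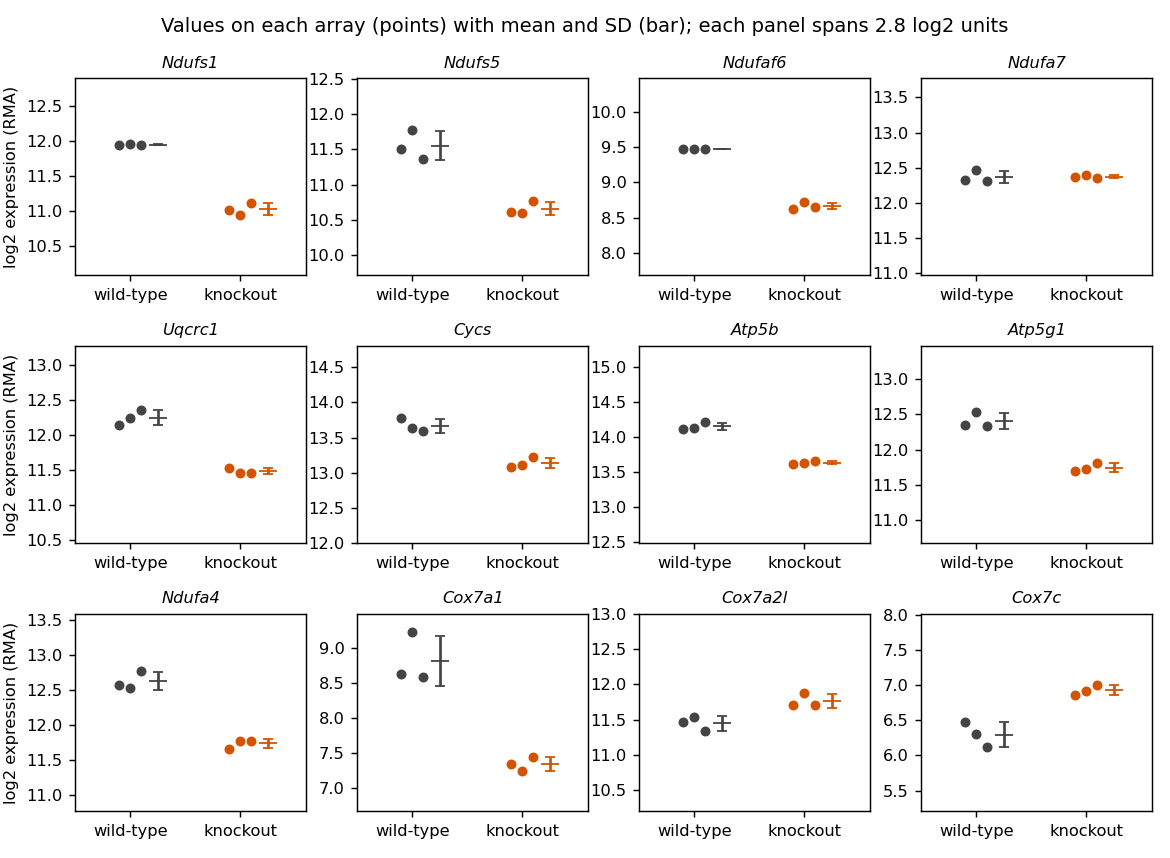
Log2 expression on each array (points, wild-type dark and knockout orange) with the mean and SD of each group (n = 3) for 12 genes, in panels of equal height. In 9 panels the knockout points lie below the wild-type points, in Ndufa7 they overlap, and in Cox7a2l and Cox7c they lie above.

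The 100 genes had 197 probe sets, of which 130 were lower and 7 higher in a fit over all probe sets. Of 55 genes with several sets, 18 had every set lower. In 3 genes, Atp5c1, Ndufa12 and Ndufab1, one set was lower and another higher, and in each the higher set was dim. That of Atp5c1, at a mean of 6.89, rose by 0.47. That of Ndufa12, at 5.59, rose by 0.75, against -0.29 in the bright set used here, and that of Ndufab1, at 6.45, rose by 0.51. With the mean of all sets these genes no longer passed, at -0.01 for Atp5c1, -0.06 for Ndufa12 and -0.37 for Ndufab1. Ndufa12 also lost its call when any array but wild-type 3 was left out (adjusted p up to 0.101) and after quantile normalisation (-0.19, adjusted p = 0.120). Atp5a1, which also has a dim set, was at -0.30 by that mean and did not pass (adjusted p = 0.0555).

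The promoters of the genes were searched for the sites of factors known to drive nuclear genes of the respiratory chain: NRF1, GABP and YY1. RefSeq windows of GRCm38.p6, from 250 bases before to 50 after a gene's start, were given for 82 of the 100 genes, 88 windows in all. The letters GCATGCGC (NRF1) stood on either strand in 12.5% of them, against 3.52% of the windows of protein-coding genes and 2.71% of all windows. CCGGAAGT (GABP) stood in 10.2%, 5.15% and 3.89%, and AAGATGGC (YY1) in 13.6%, 3.05% and 2.75%. The hypoxia response element letters ACGTG or GCGTG stood in 63.6%, 49.3% and 43.8%. Median GC content was 59.2% in the members' windows, 56.3% in those of protein-coding genes and 52.7% in all, and its part in these shares was not tested. A match is not a bound site, and no binding was measured here.

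Of 11 genes with the NRF1 letters 10 were lower, of 9 with the GABP letters 8, of 12 with the YY1 letters 8, and of 53 with the hypoxia letters 38; none of these genes was higher. These counts stand beside 75 lower of all 100 members and 27.7% of all genes, and no tie between a match and a fall was tested. The lines that follow give 30 bases around a match in 6 genes that fell, to show the letters in their promoters; each reads 5′ to 3′ on the gene's strand with the match in capitals. Positions count from 1 at the gene's first base, with negative numbers before it. They are the NRF1 match of Cycs at -60 (chr6:50566611-50566640), of Uqcrc1 at 33 (chr9:108936668-108936697) and of Uqcr11 at -4 (chr10:80406807-80406836). They are followed by the GABP match of Ndufs3 at 1 (chr2:90904703-90904732) and of Cox8a at -6 (chr19:7217604-7217633), and the YY1 match of Ndufa9 at 30 (chr6:126849097-126849126).
Cycs: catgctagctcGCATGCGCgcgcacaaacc
Uqcrc1: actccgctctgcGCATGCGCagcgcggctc
Uqcr11: atcgccttcacGCATGCGCtatacgtctgc
Ndufs3: tgcacatttccACTTCCGGtccgtgccctt
Cox8a: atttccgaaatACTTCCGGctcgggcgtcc
Ndufa9: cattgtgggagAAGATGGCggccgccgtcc

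The 150 bases before the start are shown for Cox7a1, with the largest fall (chr7:30184021-30184170, plus strand), and for Cox7a2l, which rose (chr17:83514334-83514483, minus strand). Capitals mark hypoxia response element letters in Cox7a1, on both strands. None of the searched letters stands in this stretch of Cox7a2l. The same stretch of Uqcrc1 and of Ndufs3, which fell by 0.76 and 0.77, also holds none, while that of Cycs holds the NRF1 letters.
Cox7a1: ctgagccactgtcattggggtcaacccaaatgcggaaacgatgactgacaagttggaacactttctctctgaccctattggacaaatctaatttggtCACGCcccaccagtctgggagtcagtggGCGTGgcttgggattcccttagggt
Cox7a2l: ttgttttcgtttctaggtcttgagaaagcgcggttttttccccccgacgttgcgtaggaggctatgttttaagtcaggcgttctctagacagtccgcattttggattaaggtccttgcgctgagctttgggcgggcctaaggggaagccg

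Genes around the chain whose symbols fall outside the rule were taken from a pathway list. Of its 70 measured genes 42 were lower and 5 higher, with a median of -0.32. Of all genes 27.7% were lower and 21.6% higher, with a median of -0.11. All 4 subunits of complex II, succinate dehydrogenase, fell, with a median of -0.67, from -0.86 in Sdhb to -0.65 in Sdhd. With the mean of all probe sets Sdha was at -0.32 and Sdhd at -0.51, and all 4 genes still passed. Of 6 genes that bring electrons to ubiquinone by other routes 4 fell. Prodh, proline dehydrogenase, read 11.62, 11.32 and 11.68 against 9.66, 9.53 and 9.78 (3.68-fold lower, adjusted p = 3.93e-05). Of 12 genes of ubiquinone synthesis 9 fell, 5 without knockout 2 or without knockout 3, while 6 fell without wild-type 1 or 2 or knockout 1. Among these Coq8a, a kinase-like protein needed for ubiquinone synthesis, read 10.83, 11.09 and 10.88 against 9.19, 9.10 and 9.15 (3.45-fold lower, adjusted p = 2.30e-05). By the probe sets used, both genes fell by more than any of the 100 chain genes. With the mean of its 2 probe sets Coq8a fell by 1.11, less than the 1.47 of Cox7a1. ND5, a complex I subunit encoded in the mitochondrial genome, read 14.60, 14.59 and 14.63 against 14.40, 14.34 and 14.39, near the top of the scale (1.17-fold lower, adjusted p = 0.0340). ND5 lost its call when any array but wild-type 3 was left out (adjusted p up to 0.106).

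Of 34 assembly and related factors outside the rule, 19 fell and 4 rose, beside 27.7% and 21.6% of all genes. Without knockout 1, 12 fell, beside 17.4% of all genes. With the mean of all probe sets 1 of the 34 was higher, Uqcc2: Tmem186 was then at -0.03 and Cmc1 at 0.09. Acad9, an assembly factor of complex I, read 9.73, 9.94 and 9.62 against 8.78, 8.65 and 8.70 (2.08-fold lower, adjusted p = 0.000203). The complex III factors Uqcc1 and Uqcc2 went opposite ways, 1.99-fold lower and 1.57-fold higher. With the mean of all probe sets their log2 fold changes were -0.66 and 0.46. Uqcc2 read 10.69, 10.94 and 10.49 against 11.31, 11.43 and 11.31. Higd1a, a hypoxia-induced protein that binds complex IV, read 10.61, 10.91 and 10.34 against 11.09, 11.25 and 11.22 (1.48-fold higher, adjusted p = 0.0143), though with the mean of all its probe sets it was at 0.25 and did not pass (adjusted p = 0.191). Without knockout 2 its adjusted p was 0.0518.

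Among 12 regulators of mitochondrial gene expression, 5 fell and 1 rose, beside 27.7% and 21.6% of all genes. Without knockout 2, 2 fell, beside 20.3% of all genes. The higher regulators numbered 2 without wild-type 2 or without knockout 3, beside 21.2% and 17.3% of all genes. The coactivator gene Pprc1 read 7.59, 7.42 and 7.33 against 8.77, 8.74 and 8.78 (2.50-fold higher, adjusted p = 5.12e-05). Its relatives Ppargc1a and Ppargc1b, the PGC-1 alpha and beta genes, were 1.75-fold and 1.49-fold lower, and the nuclear receptor gene Esrra 2.05-fold lower. With the mean of its probe sets Esrra had a smaller log2 fold change of -0.49 and still passed (limma adjusted p = 0.00160). Of the factors whose letters were searched, Gabpa was 1.22-fold lower (adjusted p = 0.0328), Yy1 did not pass (adjusted p = 0.677), and Nrf1 read 6.70, 7.08 and 6.95 against 7.34, 7.31 and 7.09 (adjusted p = 0.0517). Gabpa lost its call without wild-type 1 or any knockout array (adjusted p up to 0.105), and Ppargc1b without wild-type 2 or 3 or knockout 2 (up to 0.0755). Nrf1 passed, as higher, without wild-type 2, without knockout 3, with array weights or with the mean of its probe sets; by that mean 7 of the 12 regulators were lower and 2 higher. Uqcc1, Ppargc1a, Ppargc1b, Esrra and these 3 factors were named after their values were seen.

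**Figure D5:**
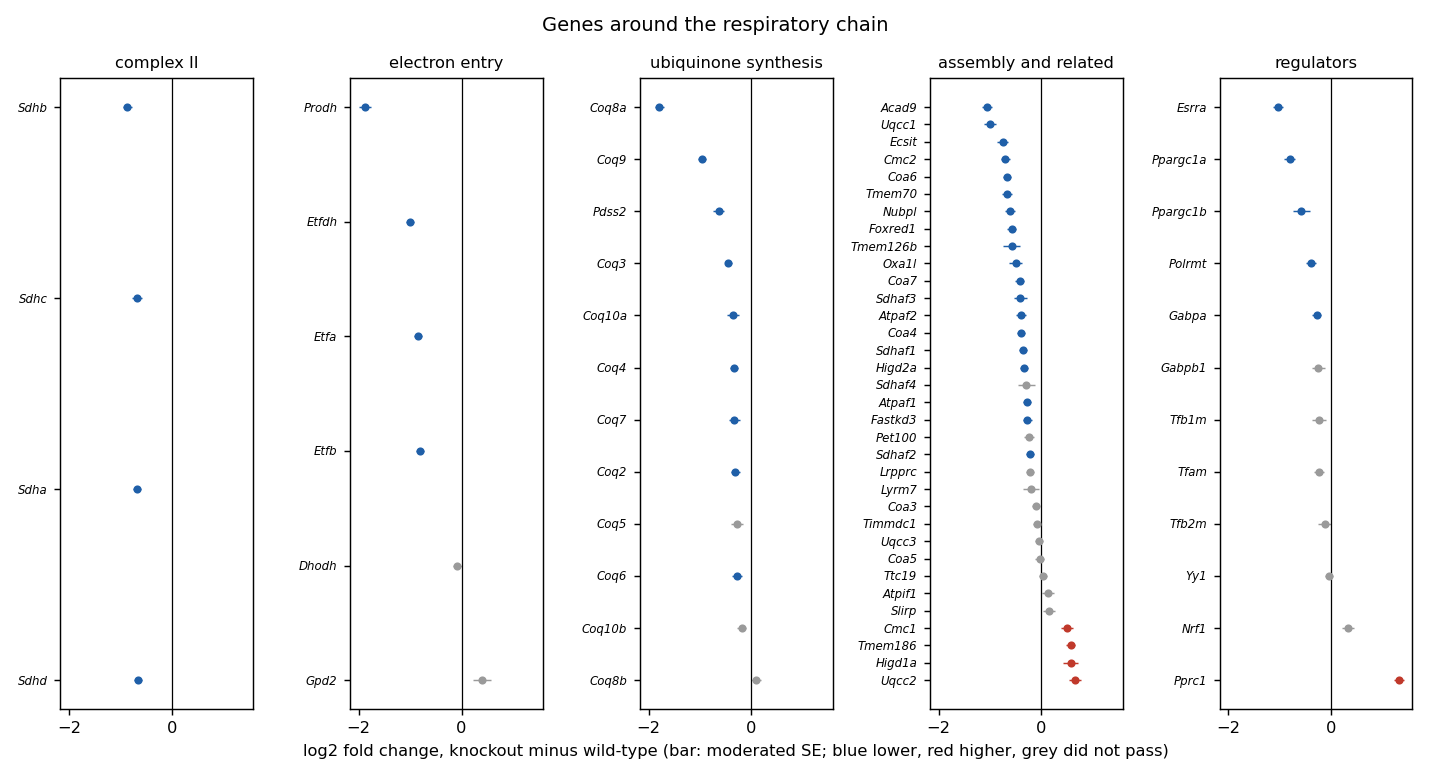
Log2 fold change of knockout over wild-type (horizontal axis, bar: moderated SE) for listed genes of complex II, electron entry to ubiquinone, ubiquinone synthesis, assembly and regulation. Blue points fell, red points rose and grey points did not pass; all 4 complex II genes are blue, and Pprc1 lies farthest to the right.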

How the data were processed

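The authors deposited log2 expression values for 45101 probe sets on 6 arrays, made by RMA per the submitters' processing notes. The log2 scale follows from their range (2.9 to 14.8); no RMA version is stated. RMA gives no detection call and compresses differences of dim and very bright probe sets. The platform annotation named the probe sets, with symbols updated by Entrez identifier to RefSeq (GRCm38.p6). Controls (64) and probe sets with several genes (932) or no gene were left out, leaving 34945 sets for 18193 genes; 11 of those left out list a symbol of the rule.

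limma 3.58.1 in R 4.3.3 (lmFit, eBayes) was run on all 18193 genes, with Benjamini-Hochberg adjustment and a threshold of 0.05; SEs are moderated. No covariate was used and dim genes were kept. The script was tested on simulated data. Named were genes called higher, isoform pairs, genes with opposite probe sets and, in each role, the 3 largest called falls and the change closest to 0; of the pathway list, the 3 largest called changes each way. Members, lists, motifs and tests were chosen with earlier results of these data known. Having 3 arrays a group limits the precision. Alternatives covered the probe set rule, a signal filter, scaling, the prior, array weights, a replicate block, a stricter threshold and leaving out each array. Promoter sequences are RefSeq's.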

Additional observations from a re-analysis of the deposited data

How the results depend on the processing

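The count of lower genes among the 100 was 75 as reported and 56 to 84 under the mean of all probe sets, the brighter 9097 genes, re-centring, quantile normalisation, a trended robust prior, array weights and a replicate block. The replicate block gave 56 lower in all and 10 lower in complex IV; same-numbered arrays correlated at -0.0986, -0.126 and -0.125 in their deviations from the group means, so the numbers were not taken as pairs. Among the genes chosen for naming as stated above, the block ended the calls of Bcs1l, Cox4i1, Cox4i2, Cox6a1, Cox6b1, Ndufa12, Ndufa4l2 and Uqcrb, with adjusted p-values of limma from 0.0521 to 0.0964. Gabpa and ND5, named outside that choice, also lost their calls with the block. At a threshold of 0.01, 43 genes were lower, with 19 in complex I, 6 in complex IV and 6 assembly factors, and 1 was higher. The higher genes numbered 1 with re-centred arrays and 1 in the brighter genes. Leaving out 1 array at a time gave 45 to 79 lower and 1 to 2 higher. By group it gave 19 to 35 lower in complex I, 7 to 17 in complex IV and 6 to 15 assembly factors. The share of all genes lower was also below 27.7% with any array left out. The median over the 100 genes stayed between -0.44 and -0.31 in every fit. With the mean of all probe sets the difference of Atp5g1 and Atp5g3 was -0.12 and that of Atp5g2 and Atp5g3 was 0.30. Among the genes of the 100 that are named here, signs turned for these, none of which had passed: Cox17 (0.01 by quantile normalisation, -0.10 to 0.05, including 0.00 and 0.02, with an array left out), Cox5a (0.02 by quantile normalisation), Ndufa2 (-0.04 re-centred, -0.03 to 0.07 with an array left out), Ndufa7 (-0.08 by the mean of probe sets, -0.07 re-centred, -0.02 to 0.05 with an array left out), Ndufaf2 (-0.03 re-centred, -0.06 by quantile normalisation, 0.00 to 0.10) and Cox8b (-1.01 to 0.09). Outside the 100, the mean of all probe sets turned Tmem186, called higher at 0.57, to -0.03. It also turned Yy1, which had not passed, from -0.04 to 0.19. The cause of these changes was not tested. Of the 75 lower genes, 45 kept their call with any array left out and 30 lost it at least once. Small falls of the dimmest probe sets cannot be told apart from the general shift at that level.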

Other observations

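Across the 100 genes the log2 fold change did not follow the mean level (Pearson r -0.09, Spearman rho -0.05, across genes, which share the same arrays and are not independent replicates). Members at means of 10 to 12 had a median log2 fold change of -0.39 and those at 12 or above one of -0.35.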
